A study of Mus musculus with 20 samples.

Results

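The genes described here are the 10 that carry the light response of cones and its shutoff, taken from the tables by gene symbol: the opsins Opn1sw and Opn1mw, the transducin subunits Gnat2, Gnb3 and Gngt2, the phosphodiesterase subunits Pde6c and Pde6h, the channel subunits Cnga3 and Cngb3, and the arrestin Arr3. All 10 were found among the 19368 genes listed for oxygen-induced retinopathy (OIR) and the 19102 listed for the injection experiment, and all 10 passed the filter on low values (a mean FPKM above 0.1) in both. Their NCBI gene identifiers in the tables are 12057 for Opn1sw, 14539 for Opn1mw, 14686 for Gnat2, 14695 for Gnb3, 14710 for Gngt2, 110855 for Pde6c, 78600 for Pde6h, 12790 for Cnga3, 30952 for Cngb3 and 170735 for Arr3.

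The series holds bulk RNA-Seq of whole retinas from C57BL/6J mice, 20 libraries that fall into 4 groups of 5. In the OIR experiment, Atf6+/+ and Atf6-/- pups were kept in 75% oxygen from P7 to P12, returned to room air, and their retinas were collected at P17. In the injection experiment, Atf6+/+ mice received 1 µL of saline or of 10 µM Ceapin-A7, a small molecule that keeps ATF6 from being activated, into the vitreous of both eyes at P30, and the retinas were collected 24 h later. The control is saline in the authors' methods and PBS in the sample titles. By the methods both solutions held dimethyl sulfoxide, at a lower share with Ceapin-A7 than in the control. The labels give the solvent differently, so no share is given here. ATF6 is an endoplasmic reticulum membrane protein whose cleaved part turns on genes for protein folding. The Atf6-/- allele is a constitutive knockout, so that every cell of the animal lacks the protein, whereas the injection reached an adult eye for 1 day. The labels do not say whether the libraries of a group came from separate animals, and p-values then measure the spread between these libraries.

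Cones are the photoreceptors of daylight and colour vision, and they are a small minority beside rods in the mouse retina. Light turns an opsin on, the opsin activates transducin, transducin releases the phosphodiesterase from its inhibitory subunit, cyclic GMP falls, and the cyclic nucleotide-gated channel closes. Arrestin binds the opsin to end the response. In people, loss of GNAT2, PDE6C, PDE6H, CNGA3, CNGB3 or ATF6 causes achromatopsia, an absence of cone function from birth, which is the question these genes put to a series about ATF6. In a bulk sample, fewer cones and less RNA in each cone cannot be told apart.

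Promoter sequence was at hand for 6 of the 10 genes, and the windows of Gnat2, Opn1mw and Opn1sw are shown because Gnat2 and Opn1mw had the smallest p-values in the knockout comparison and Opn1sw is the other opsin of the pair compared below. Each is the 250 bases before the annotated start, written 5′ to 3′ on the strand of the gene, from RefSeq on GRCm38.p6 (the expression values were made on GRCm39). Capitals mark matches on either strand to TAATCC, the core bound by CRX and OTX2, or to AGGTCA, the half-site of nuclear receptors such as the thyroid hormone and retinoid X receptors.
Gnat2, chr3:108092816-108093065, + strand: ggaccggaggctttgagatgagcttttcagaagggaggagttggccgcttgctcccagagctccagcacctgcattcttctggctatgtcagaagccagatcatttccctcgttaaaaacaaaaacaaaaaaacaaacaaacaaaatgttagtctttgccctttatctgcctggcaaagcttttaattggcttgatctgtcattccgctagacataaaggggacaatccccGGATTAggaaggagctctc
Opn1mw, chrX:74127216-74127465, + strand: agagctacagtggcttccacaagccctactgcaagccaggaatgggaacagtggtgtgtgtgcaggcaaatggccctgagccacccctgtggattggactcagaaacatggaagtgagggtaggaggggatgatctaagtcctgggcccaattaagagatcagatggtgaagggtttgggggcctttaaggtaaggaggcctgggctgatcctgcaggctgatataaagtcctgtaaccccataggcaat
Opn1sw, chr6:29380514-29380763, − strand: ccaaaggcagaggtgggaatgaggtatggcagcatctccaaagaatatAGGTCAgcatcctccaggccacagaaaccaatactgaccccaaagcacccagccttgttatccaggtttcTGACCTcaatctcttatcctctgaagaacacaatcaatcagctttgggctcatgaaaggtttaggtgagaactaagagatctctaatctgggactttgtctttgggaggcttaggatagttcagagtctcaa

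The Gnat2 window held 1 match to TAATCC, on the other strand, and the Opn1sw window held 2 matches to AGGTCA, 1 on each strand. The windows of Opn1mw, Cnga3, Pde6h and Arr3 held no match to either. Of all 32851 promoter windows of the same length, 6.25% held TAATCC and 14.0% held AGGTCA. The ATF6 site TGACGTGG was present in 0.563% of all windows, and the longer endoplasmic reticulum stress element, CCAAT and CCACG separated by any 9 bases, in 0.113%. Neither of these was found in the 7 windows of the 6 cone genes (Cnga3 has 2), which says only that these letters are not in these windows.

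The cone genes spanned a wide range of levels, with Gnb3 and Pde6h highest and Cngb3 and Cnga3 lowest in all 4 groups. FPKM, fragments per kilobase of transcript scaled to library size, can be compared between genes since it is given per length. In Atf6+/+ OIR retinas, Gnb3 (344 ± 62.6 FPKM, SD, n = 5) and Pde6h (324 ± 41.0) were highest. Gngt2 (181 ± 27.0), Opn1mw (147 ± 18.6) and Opn1sw (134 ± 13.5) followed, then Gnat2 (81.7 ± 7.48), Arr3 (75.9 ± 12.2) and Pde6c (55.8 ± 4.18). The channel genes Cngb3 (5.50 ± 0.893) and Cnga3 (3.98 ± 0.424) were lowest. Neighbours in this order overlapped between libraries except at 3 steps, from Pde6h to Gngt2, from Opn1sw to Gnat2 and from Pde6c to Cngb3. Gnb3 is not particular to cones, since ON bipolar cells also make it. The other 9 genes and the cone transcription factors Thrb and Rxrg were above 0 in every library, which does not show which cells made them.

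**Figure D1:**
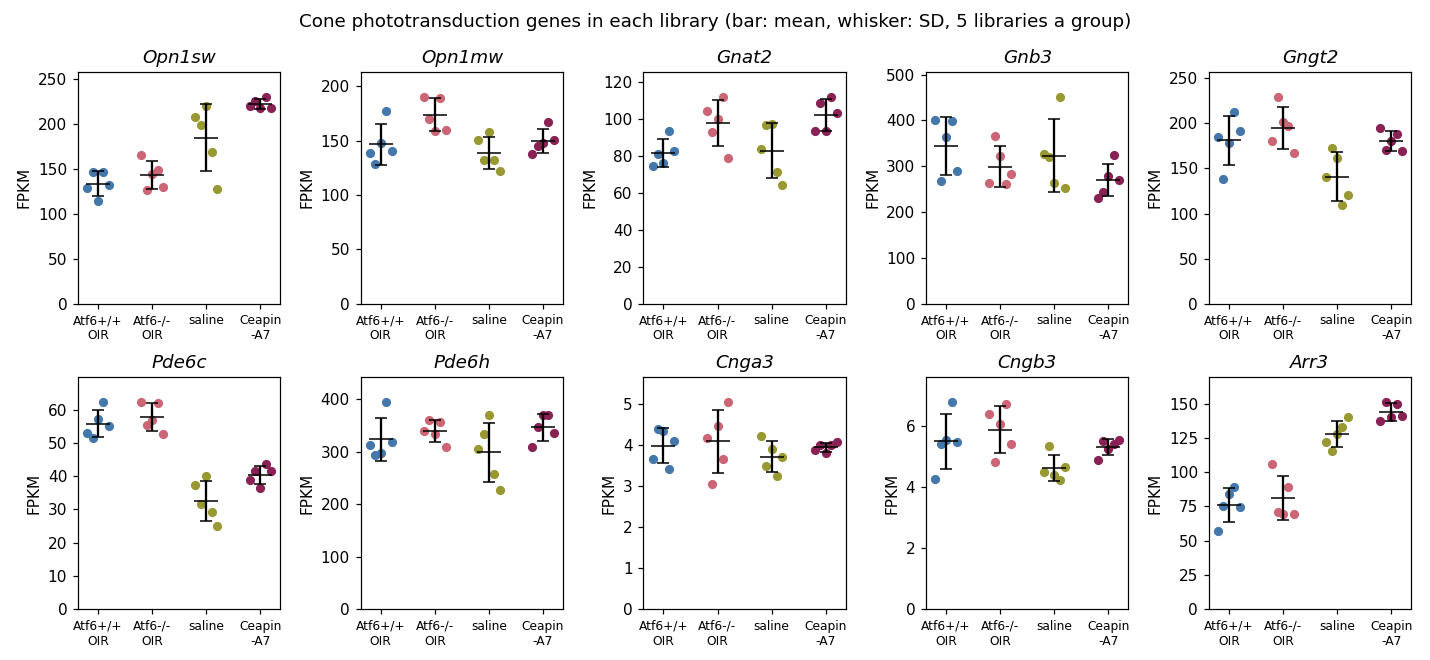
FPKM (vertical axes, starting at 0) of each cone gene in the 5 libraries of each of the 4 groups, with each point a library, each bar the mean and each whisker the SD. The channel genes Cnga3 and Cngb3 sit near 4 and 5 FPKM, and saline-treated replicates 4 and 5, the 2 rightmost points of that group, are low for Opn1sw, Gnat2, Gngt2, Pde6c and Pde6h.

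The first comparison asked whether cone genes differed between Atf6-/- and Atf6+/+ retinas after OIR. Of the 10 genes, 9 had higher mean log2 values in Atf6-/- retinas and Gnb3 a lower one, but none passed limma at an adjusted p under 0.05, against 0.0318% of the 15704 genes tested (5 genes). At an unadjusted p of 0.05 or less, Opn1mw and Gnat2 passed, both higher. That is 2 of 10, where 12.7% of all genes passed in either direction and 6.92% passed as higher. The median log2 fold change of the 10 genes was 0.11, and that of all genes tested was 0.0028. With 1 library left out at a time, the median of the 10 ran from 0.070 (without Atf6-/- replicate 1) to 0.15 (without Atf6+/+ replicate 4). None of the 10 had groups without overlap, against 1.52% of all genes tested.

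Opn1mw encodes the middle-wavelength opsin. Its FPKM were 138, 129, 148, 178 and 140.2 in the Atf6+/+ libraries and 191, 170.4, 159, 189 and 159.9 in the Atf6-/- libraries. Of the 5 Atf6-/- libraries, 2 lay above every Atf6+/+ library, and the groups overlapped through Atf6+/+ replicate 4. The log2 fold change was 0.27 (95% interval 0.09 to 0.45), with a limma adjusted p of 0.357.

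Opn1sw, the short-wavelength opsin, had 129, 146, 115, 147 and 132 FPKM in Atf6+/+ and 166, 127, 144, 149 and 130.0 FPKM in Atf6-/- libraries. Here the groups were interleaved, with a log2 fold change of 0.11 (95% interval -0.08 to 0.31). Most cones of the mouse carry both opsins, in proportions that vary from dorsal to ventral retina, so the ratio of Opn1mw to Opn1sw within a library is a measure that no scaling between libraries moves. The ratio was 1.10 ± 0.155 (SD, n = 5) in Atf6+/+ and 1.22 ± 0.0962 in Atf6-/- retinas, a log2 difference of 0.15 with an exact two-sided permutation p of 0.190, where 0.00794 is the smallest p that 5 and 5 libraries can give.

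Gnat2, the transducin subunit that binds GTP and activates the phosphodiesterase, had 74.6, 80.9, 76.4, 93.7 and 82.8 FPKM in Atf6+/+ libraries. In Atf6-/- libraries it had 104, 93.2, 100.2, 112 and 79.0 FPKM. Of the 5 Atf6-/- libraries, 3 lay above every Atf6+/+ library, and the other 2, replicates 2 and 5, did not. The log2 fold change was 0.27 (95% interval 0.09 to 0.45), with a limma adjusted p of 0.357. With array weights, which give less weight to libraries far from their group, Opn1mw (log2 fold change 0.30, limma adjusted p of 0.0270) and Gnat2 (0.33, limma adjusted p of 0.0249) passed, under a setting that called 17.7% of all genes.

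The other transducin subunits, Gnb3 (beta) and Gngt2 (gamma), had intervals that include 0. Gnb3 had 402, 268, 364, 399 and 289 FPKM in Atf6+/+ and 264, 365, 323, 262 and 282 FPKM in Atf6-/- libraries, with a log2 fold change of -0.18 (95% interval -0.45 to 0.10). Gngt2 ranged from 138 to 212 FPKM in Atf6+/+ and from 167 to 229.5 FPKM in Atf6-/- libraries, with a log2 fold change of 0.13 (95% interval -0.09 to 0.35).

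For the effector genes and the arrestin, the intervals also include 0. Pde6c, the catalytic subunit, ranged from 51.4 to 62.2 FPKM in Atf6+/+ and from 52.6 to 62.3 FPKM in Atf6-/- libraries, and its 95% interval, -0.06 to 0.20, was the narrowest of the 10. Pde6h, the inhibitory subunit, had a log2 fold change of 0.09 (95% interval -0.07 to 0.26). Cngb3, the modulatory channel subunit, had one of 0.12 (-0.14 to 0.37), and Cnga3, the other channel subunit, one of 0.04 (-0.27 to 0.35). Arr3 had 57.2, 75.1, 84.1, 88.9 and 74.2 FPKM in Atf6+/+ and 106, 71.2, 69.4, 89.5 and 69.6 FPKM in Atf6-/- libraries, and Atf6-/- replicate 1 was the highest of all 10. Its log2 fold change was 0.11 (95% interval -0.18 to 0.40).

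These small OIR differences rested in part on single libraries. Without 1 library, the value moved by over 1.5 times for 8 of the 10 genes, the exceptions being Opn1mw and Gnat2. Opn1sw fell to 0.055 without Atf6+/+ replicate 3 and Gngt2 to 0.038 without Atf6+/+ replicate 2. Cngb3 was 0.039 without Atf6+/+ replicate 1, and Arr3 was 0.0042 without Atf6-/- replicate 1. Gnb3 was -0.11 without Atf6+/+ replicate 1, Pde6c was 0.040 without Atf6-/- replicate 1, and Pde6h was 0.15 without Atf6+/+ replicate 4.

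The second comparison asked the same of 1 day of Ceapin-A7 in the P30 retina. Again 9 of the 10 genes had higher mean log2 values, Gnb3 had a lower one, and none passed at an adjusted p under 0.05, as for all 15408 genes tested (0.0% called, none by limma, although 1596 had an unadjusted p of 0.05 or less). At that unadjusted threshold, 6 of the 10 genes passed, all higher: Opn1sw, Gnat2, Gngt2, Pde6c, Cngb3 and Arr3. Of all genes tested, 10.4% passed in either direction and 5.04% passed as higher. The median log2 fold change of the 10 genes was 0.22, and that of all genes tested was 0.00073. None of the 10 had groups without overlap, against 1.34% of all genes tested.

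**Figure D2:**
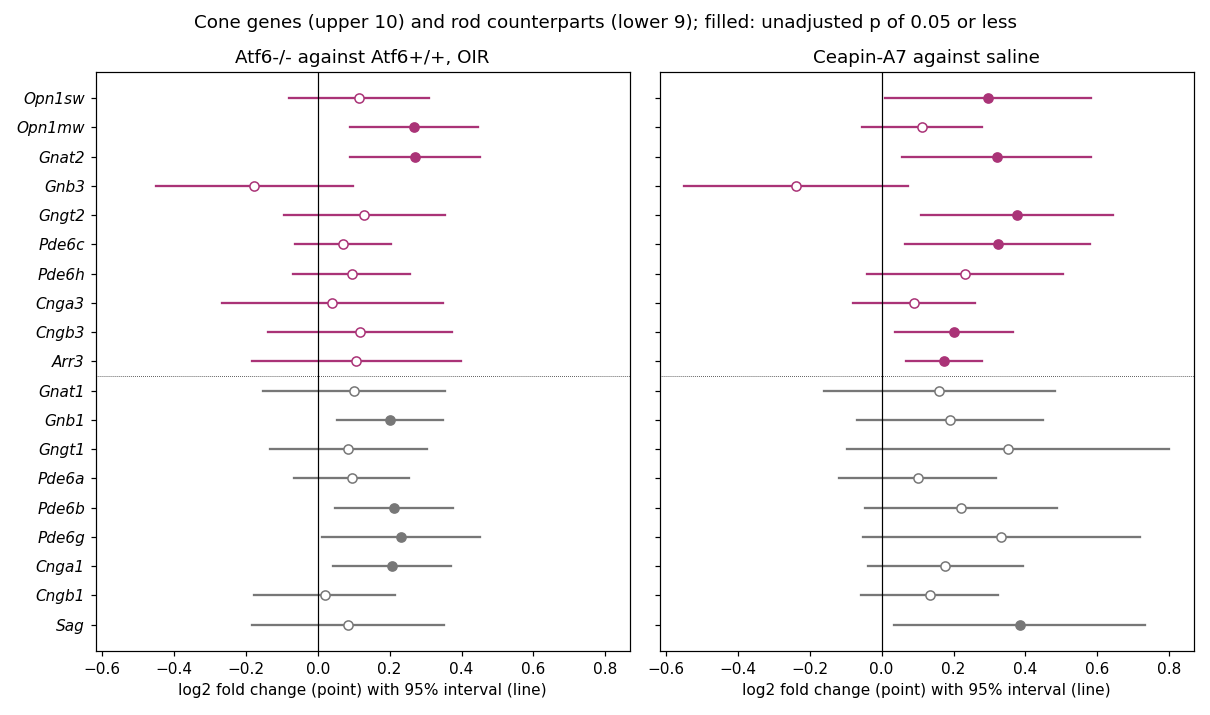
log2 fold change (horizontal axis, points) and its 95% interval (lines) from limma for the 10 cone genes and, below the dotted line, 9 rod counterparts, with Atf6-/- against Atf6+/+ OIR on the left and Ceapin-A7 against saline on the right. Filled points have an unadjusted p of 0.05 or less: Opn1mw and Gnat2 among cone genes on the left, and 6 cone genes on the right.

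Saline-treated replicates 4 and 5 stood apart from the other libraries of the injection experiment. The median deviation of the 10 cone genes from their mean over the 10 injection libraries was -0.27 and -0.34 on the log2 scale in these libraries, and 9 of 10 genes lay below the mean in each. In the other 3 saline-treated libraries it was 0.0010, 0.056 and 0.078, and in the Ceapin-A7-treated libraries it ran from 0.034 to 0.19. Rod counterparts, the genes with the same task in rods, deviated by -0.40 and -0.39 in saline-treated replicates 4 and 5.

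**Figure D3:**
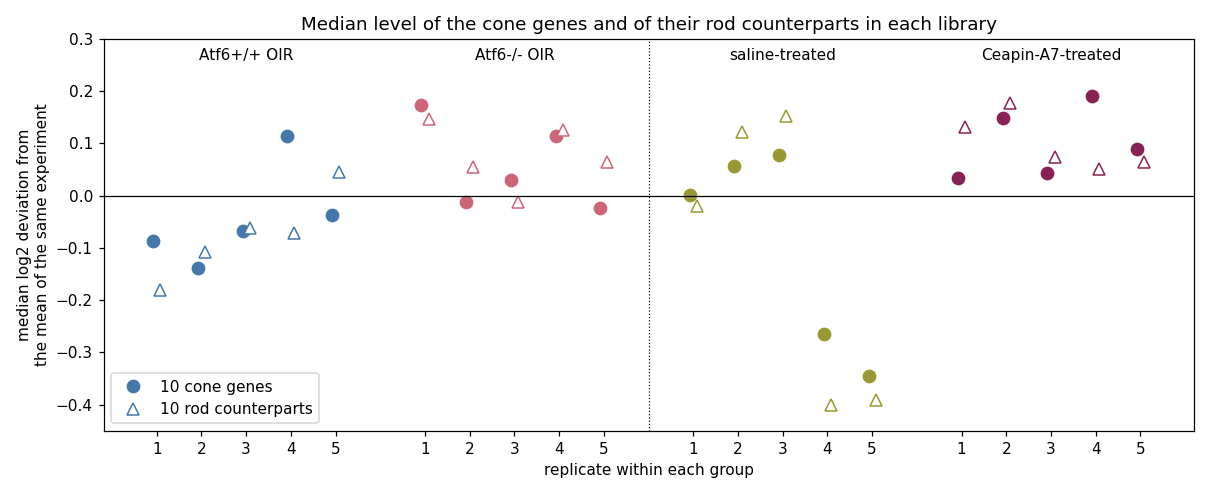
Median log2 deviation (vertical axis) of the 10 cone genes (circles) and of the 10 rod counterparts (triangles) in each of the 20 libraries, measured from each gene's mean over the 10 libraries of its experiment, which the dotted line separates. Saline-treated replicates 4 and 5 lie lowest for both gene lists, at -0.27 and -0.34 for the cone genes.

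Of 6 markers of Müller glia, the support cells that span the retina, 4 had saline-treated replicates 4 and 5 at an end of the 10 libraries, lowest for Glul and Aqp4 and highest for Vim and Slc1a3, and 2, Rlbp1 and Apoe, did not. Glul, which makes glutamine synthetase, had 666, 624, 1024, 254 and 330.2 FPKM in saline-treated libraries and 848 to 1014 FPKM in Ceapin-A7-treated libraries. Vim, an intermediate filament gene that reactive glia raise, had 189, 144, 103, 327 and 312 FPKM in saline-treated libraries and 97.9 to 138 FPKM in Ceapin-A7-treated libraries. Rlbp1, which encodes a retinoid-binding protein, had 144, 173, 215, 121 and 191 FPKM in saline-treated libraries, and Apoe, a lipid carrier gene, had 439, 268, 502, 231 and 288 FPKM. The summed level of the 6 Müller glia markers ranged from 1009 to 1918 FPKM with saline and from 1585 to 1830 FPKM with Ceapin-A7. None was at 0. At an unadjusted p of 0.05 or less, 1 (Glul) was higher and 1 (Vim) was lower, where 10.4% of all genes passed in either direction. The part of these marker differences in the cone gene values was not tested.

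Without saline-treated replicates 4 and 5, an alternative chosen after seeing the data, 2 of the 10 genes, Gngt2 and Arr3, had an unadjusted p of 0.05 or less, both higher, against 2.61% of all genes passing as higher. The median log2 fold change of the 10 was then 0.099. Without replicate 4 alone, 3 genes passed (Gngt2, Pde6c and Arr3), beside 6.19% of all genes in either direction, and without replicate 3, 8 passed, beside 14.4% of all genes. Without replicate 5 the log2 fold change was 0.16 for Opn1sw, 0.059 for Opn1mw and 0.13 for Pde6h, and without replicate 4 it was -0.12 for Gnb3 and 0.039 for Cnga3.

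Arr3 had 122, 115, 128, 133 and 140.2 FPKM in saline-treated and 137, 151, 140.1, 150.1 and 141 FPKM in Ceapin-A7-treated libraries. Saline-treated replicates 4 and 5 were the highest of their group for this gene, and 3 of 5 Ceapin-A7-treated libraries lay above all saline-treated libraries. The log2 fold change was 0.17 (95% interval 0.07 to 0.28, limma adjusted p of 0.472) with all libraries and 0.22 without the 2.

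Opn1sw had 208, 199, 220.3, 169 and 128 FPKM with saline and 219.8, 226, 218, 231 and 218 FPKM with Ceapin-A7. The Ceapin-A7-treated libraries were within a narrow band near the upper end of the saline-treated ones, and the low values were those of saline-treated replicates 4 and 5. The log2 fold change was 0.30 (95% interval 0.01 to 0.58, limma adjusted p of 0.476), and 0.074 without those 2 libraries.

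Opn1mw ranged from 122 to 158 FPKM with saline and from 138 to 167 FPKM with Ceapin-A7, with a log2 fold change of 0.11 (95% interval -0.06 to 0.28). The ratio of Opn1mw to Opn1sw was 0.769 ± 0.112 (SD, n = 5) with saline and 0.673 ± 0.0382 with Ceapin-A7. Its log2 difference was -0.18, with an exact two-sided permutation p of 0.0714 (0.143 adjusted over the 2 ratio tests, and 0.190 for OIR). In saline-treated replicate 5 the ratio was 0.955, and in the other 9 injection libraries it ran from 0.627 to 0.784.

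**Figure D4:**
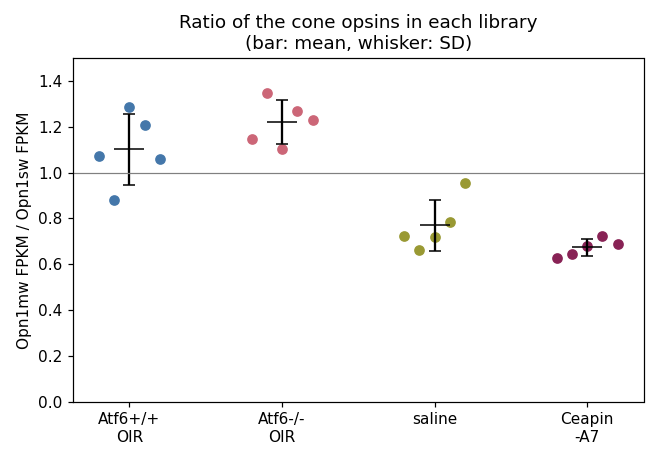
Ratio of Opn1mw FPKM to Opn1sw FPKM (vertical axis, starting at 0, grey line at 1) in each of the 20 libraries, with the mean (bar) and SD (whisker) of each group. The means are 1.10 and 1.22 in Atf6+/+ and Atf6-/- OIR retinas and 0.769 and 0.673 in saline-treated and Ceapin-A7-treated retinas.

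Among the transducin genes, Gnat2 had 83.6, 97.0, 97.5, 71.3 and 64.3 FPKM with saline and 93.6, 109, 93.5, 112 and 103 FPKM with Ceapin-A7, a log2 fold change of 0.32 (95% interval 0.06 to 0.58, limma adjusted p of 0.472). Gngt2 had 140.4, 173, 162, 109 and 120.1 FPKM with saline and 195, 170.4, 181, 188 and 169 FPKM with Ceapin-A7, the highest log2 fold change of the 10 at 0.38 (95% interval 0.11 to 0.65, limma adjusted p of 0.472). For both, 3 of 5 Ceapin-A7-treated libraries exceeded every saline-treated library. Without saline-treated replicates 4 and 5, the log2 fold changes were 0.12 for Gnat2 and 0.18 for Gngt2.

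Gnb3 went the other way from its partners, as it had in OIR. It had 327, 321, 264, 452 and 253 FPKM with saline and 232, 244, 279, 324 and 271 FPKM with Ceapin-A7. Saline-treated replicate 4, low for Gnat2 and Gngt2, was the highest of the 10 libraries for Gnb3. The log2 fold change was -0.24 (95% interval -0.55 to 0.07).

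Pde6c had 37.4, 31.6, 39.9, 29.3 and 25.01 FPKM with saline and 38.7, 41.5, 36.3, 43.6 and 41.5 FPKM with Ceapin-A7, a log2 fold change of 0.32 (95% interval 0.06 to 0.58), and 0.14 without saline-treated replicates 4 and 5. Pde6h ranged from 228 to 369.7 FPKM with saline and from 308 to 371 FPKM with Ceapin-A7, a log2 fold change of 0.23 (-0.04 to 0.51). The channel genes had the lowest FPKM of the 10. Cngb3 had 4.49, 5.36, 4.41, 4.24 and 4.65 FPKM with saline and 4.90, 5.50, 5.24, 5.42 and 5.55 FPKM with Ceapin-A7 (log2 fold change 0.20, 95% interval 0.04 to 0.37), and Cnga3 ranged from 3.25 to 4.23 and from 3.80 to 4.08 FPKM (0.09, -0.08 to 0.26).

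Whether the knockout and the inhibitor moved a cone gene by different amounts was tested as the difference of the effects in a fit of all 20 libraries. None of the 10 genes passed at an adjusted p under 0.05, against 0.032% of 15628 genes tested, and none at an unadjusted p of 0.05 or less, against 9.2% of them. The widest gaps were -0.25 for Pde6c (95% interval -0.54 to 0.04) and -0.25 for Gngt2 (-0.60 to 0.11), each lower in the knockout than in the inhibitor comparison. These intervals still allow effects that differ by a log2 value of 0.5, so a like response is not shown either.

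Rod counterparts were set beside the cone genes within libraries. Rod transcripts outnumbered those of cones by factors that depended on the step of the cascade. In Atf6+/+ OIR retinas, Gnat1 was 69.7 ± 5.55 times Gnat2, Cnga1 was 82.6 ± 14.0 times Cnga3 and Cngb1 was 77.2 ± 14.6 times Cngb3 (SD, n = 5). The ratio was lower for Pde6b to Pde6c (10.9 ± 0.810), Pde6g to Pde6h (10.3 ± 0.711), Gngt1 to Gngt2 (3.97 ± 0.415) and Gnb1 to Gnb3 (3.54 ± 0.740). Gnb1 is made by many retinal cells, and Gnb3 by bipolar cells, so that last pair compares more than photoreceptors.

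**Figure D5:**
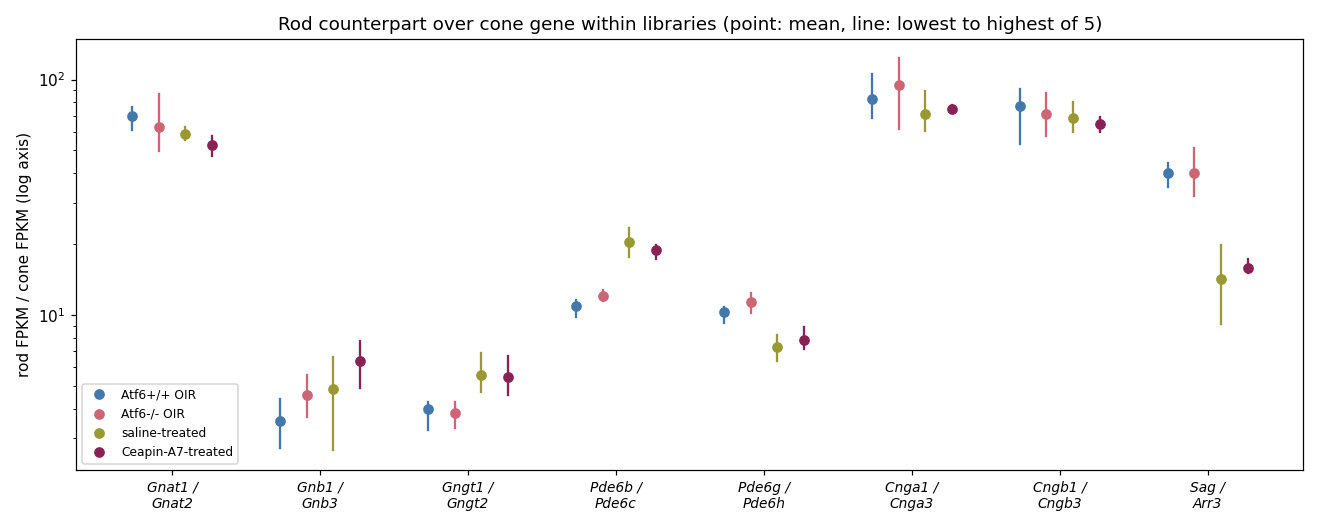
Ratio of the FPKM of a rod counterpart to that of its cone gene within libraries for 8 pairs (vertical log axis), with the mean (point) and the lowest to highest of 5 libraries (line) in each of the 4 groups. Ratios run from 3.54 for Gnb1 to Gnb3 up to 82.6 for Cnga1 to Cnga3 in Atf6+/+ OIR retinas, and Sag to Arr3 is 40.1 there and 14.2 in saline-treated retinas.

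All 10 rod counterparts also had positive log2 fold changes in both comparisons. In OIR their median was 0.12, beside 0.11 for the cone genes. Of all genes, 12.7% had an unadjusted p of 0.05 or less, and of the rod counterparts 4 did (Gnb1, Pde6b, Pde6g and Cnga1). That count was 0 with quantile normalization (rod median 0.058), 1 with the replicate number as a block, 0 with the block and a GC correction, and 1 in a fit of all 20 libraries. With Ceapin-A7 their median was 0.18, beside 0.22 for the cone genes, and 1 did (Sag, where 10.4% of all genes did). None passed at an adjusted p under 0.05 in limma. Relative to the rod counterparts, that is with libraries rescaled by those 10 genes, which moves the median of all genes to -0.13 in OIR and -0.21 with Ceapin-A7, the cone genes' median was -0.028 in OIR and 3.1e-05 with Ceapin-A7. On that scale only Opn1mw and Gnat2 kept a positive value in OIR, 0 of 10 cone genes had an unadjusted p of 0.05 or less there (22.0% of all genes), and 1 did with Ceapin-A7 (Gnb3, where 7.98% of all genes did). Without saline-treated replicates 4 and 5, the rod counterparts' median was 0.0051 and that of the cone genes was 0.099.

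The groups of the 2 experiments differ in age, hyperoxia and injection, which cannot be told apart, and their levels are given side by side. Between saline-treated and Atf6+/+ OIR retinas, 2 of 10 cone genes had libraries that did not overlap, against 40.4% of 15205 genes. Arr3 was higher in saline-treated retinas (128 ± 9.54 FPKM, against 75.9 ± 12.2 FPKM, SD, n = 5), and Pde6c was lower (32.6 ± 6.03 FPKM, against 55.8 ± 4.18 FPKM). Of the rod counterparts, Pde6g, Cngb1 and Sag did not overlap, all lower in saline-treated retinas, so that Sag was 40.1 ± 3.59 times Arr3 in Atf6+/+ OIR and 14.2 ± 4.36 times in saline-treated retinas. The opsins stood in the opposite order in the 2 experiments, with Opn1mw above Opn1sw on average in OIR and Opn1sw above Opn1mw in all 10 injection libraries.

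Genes for shutoff, calcium feedback, assembly, transport and membrane excitability passed the unadjusted threshold in small numbers. Of all genes tested, 12.7% passed it in OIR and 10.4% with Ceapin-A7, in either direction. Of 11 shutoff and calcium feedback genes, 2 had an unadjusted p of 0.05 or less in OIR, both higher: Gnb5, a partner of the RGS9 complex that ends transducin signalling (log2 fold change 0.29), and Pdc, phosducin, which binds transducin beta-gamma (0.29). With Ceapin-A7, 1 did, Guca1a, a guanylate cyclase activator (0.26). Of 6 genes for assembly, transport and membrane excitability, Pde6d, which carries lipid-tailed proteins to the outer segment, was the 1 in each comparison, higher in both (0.23 in OIR, 0.16 with Ceapin-A7). The smallest adjusted p in these lists was 0.357 in OIR and 0.472 with Ceapin-A7 in limma.

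Of 9 photoreceptor transcription factors, 3 had an unadjusted p of 0.05 or less in OIR, all higher: Rorb (log2 fold change 0.47), Thrb, which sets the middle-wavelength opsin fate (0.20), and Crx (0.19). Of all genes tested in OIR, 12.7% passed in either direction and 6.92% as higher. With Ceapin-A7, 0 of 9 did. The list's median was 0.094 in OIR and 0.031 with Ceapin-A7. Bipolar cell markers, which bear on Gnb3, had a median of 0.025 in OIR, where 5 of 10 were higher and 5 lower. With Ceapin-A7 their median was 0.045, with 7 higher and 3 lower. At the unadjusted threshold, 1 of 10 (Isl1) passed in OIR and 2 of 10 (Prkca and Trpm1) with Ceapin-A7, all 3 higher. Of all genes tested with Ceapin-A7, 10.4% passed in either direction and 5.04% as higher. The summed level of the bipolar cell markers ranged from 615 to 718 FPKM in Atf6+/+ and from 643 to 737 FPKM in Atf6-/- OIR libraries. Gng13 was the largest part of that sum (321 FPKM on average in Atf6+/+ OIR).

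Tissue from outside the neural retina differed between libraries. In OIR, 5 of 9 pigment epithelium markers were higher in Atf6-/- libraries at an unadjusted p of 0.05 or less, among them Rgr (log2 fold change 1.95), Lrat (1.67) and Rdh5 (1.01), and their summed level ranged from 22.5 to 130.4 FPKM in Atf6+/+ and from 84.7 to 319 FPKM in Atf6-/- libraries. Of all genes tested there, 12.7% passed that threshold in either direction and 6.92% as higher. Of 10 lens markers tested, 9 were lower, led by Cryaa (-5.46), Cryba1 (-5.02) and Crybb2 (-4.26), with sums of 8.99 to 553 FPKM in Atf6+/+ and 5.73 to 8.58 FPKM in Atf6-/- libraries. In the injection experiment, 2 pigment epithelium markers (Dct and Pmel) were higher and 2 (Lrat and Ttr) lower at that threshold, with sums of 132 to 281 FPKM with saline and 116 to 361 FPKM with Ceapin-A7. These sums join markers that went opposite ways. Ceapin-A7-treated replicate 3 had the highest Dct (154 FPKM) and Pmel (98.1 FPKM) of the injection libraries, and the lowest Lrat (0.15 FPKM) and Ttr (29.3 FPKM). Lens sums there ran from 7.90 to 4805 FPKM with saline and from 83.7 to 8708 FPKM with Ceapin-A7. No marker of either list was at 0 in all libraries of a group. Of the lens markers, 5 were at 0 in some Atf6-/- libraries, 3 in some Atf6+/+ OIR libraries and 1 in some saline-treated libraries. The cone gene counts were 2 of 10 and 6 of 10 also with these markers left out of the fits, beside 12.7% and 10.4% of all genes. In OIR, 4 of 6 Müller glia markers had a positive log2 fold change and 2 a negative one, down to -0.27. Of the 6, 1 (Apoe, 0.24) was higher at an unadjusted p of 0.05 or less. The sum of the 6 ran from 1950 to 2212 FPKM in Atf6+/+ and from 2149 to 2358 FPKM in Atf6-/- libraries. Apoe (871 FPKM on average in Atf6+/+ OIR) and Glul (566 FPKM) were its largest parts. The part of any of these in the cone gene values was not tested.

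Fold changes followed the GC content of transcripts in OIR (Spearman correlation of -0.461 across 15455 genes, which are not independent replicates) and less so with Ceapin-A7 (-0.099 across 15178 genes). After correction for GC content, Opn1mw and Gnat2 were still the 2 cone genes at an unadjusted p of 0.05 or less in OIR, and the same 6 passed with Ceapin-A7. Of all genes, 10.6% passed in OIR and 10.9% with Ceapin-A7 after that correction. Atf6 itself checks no label here, because the Atf6-/- allele carries a premature stop codon and its transcript is still made: it had 14.6 to 16.1 FPKM in Atf6+/+ and 13.6 to 16.8 FPKM in Atf6-/- libraries.

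Within groups, the cone genes did not all vary together. Over the 20 libraries, with each group's mean removed, Pearson's r was 0.84 between Opn1mw and Pde6c and 0.83 between Gnat2 and Pde6h, and it was -0.42 between Gnb3 and Cnga3. The r with the mean of all 10 was 0.83 to 0.90 for Opn1sw, Opn1mw, Gnat2, Pde6c and Pde6h, 0.57 for Gngt2 and 0.56 for Cngb3. It was 0.28 for Arr3, 0.087 for Cnga3 and 0.049 for Gnb3. Each of these genes is part of that mean, which raises its r. Their values therefore cannot be compared with those of genes outside the mean. Of 12557 other genes with a mean of at least 1 FPKM in each experiment, those most like the mean of the 10 were Clca1 (r = 0.93), G6pdx (0.93), Tbc1d7 (0.88), Dmac2 (0.88), Laptm4b (0.87), Zfp14 (0.87), Rtbdn (0.87), Creg1 (0.86), Pdc (0.85) and Rrm1 (0.85). The rod counterparts had r from 0.29 for Cngb1 to 0.81 for Pde6g. The points share libraries that differ in make-up, saline-treated replicates 4 and 5 among them, and the correlations are descriptions.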

How the data were processed

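The authors sequenced stranded mRNA as paired-end reads of 100 bp, aligned to GRCm39 with HISAT2 (version 2.0.4), quantified with RSEM (version 1.2.18) and compared groups with DESeq2 (version 1.4.5), per their methods and processing notes. They deposited FPKM per gene to 2 decimals. These are not counts, so no count model or counting interval was used. Relative depth within each experiment was read from the steps of low FPKM values in 17 to 32 genes a library. It was 1.0 except in Atf6-/- replicate 4 (0.941) and Ceapin-A7-treated replicate 3 (0.710). With values of 2 decimals this reading is coarse, and it does not compare depth between the experiments. Listed FPKM summed to 410599 to 456250 a library.

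Groups came from the sample labels. Libraries were rescaled by median-of-ratios factors, 0.1 was added to FPKM, genes were kept above a mean FPKM of 0.1, and log2 values were tested within each experiment's 10 libraries by limma (version 3.58.1, eBayes with trend, R version 4.3.3). Fold changes are on that log2(FPKM + 0.1) scale, which understates the change of low genes. P-values were adjusted by Benjamini-Hochberg across every gene of an experiment's fit and called under 0.05, and the number of genes with an unadjusted p of at most 0.05, the study's own threshold, stands beside the calls. FPKM values and overlaps between libraries are as deposited. For opsin ratios, the test was an exact permutation over libraries, two-sided (scipy version 1.17.1). On simulated data the limma fit recovered 97.5% (OIR, 15704 genes) and 97.0% (Ceapin-A7, 15408 genes) of 200 genes changed 2-fold. Those changes were larger than any in the cone genes (highest log2 fold change 0.38), and the simulated noise was independent between genes. The recovery therefore says nothing of changes as small as those of the cone genes. Named genes are the 10 cone genes, their rod counterparts (1 of the 10 counts in the summaries but is not reported here by itself), up to 3 genes with the smallest p in each other list, and the 10 genes most correlated with the cone genes. Lrat with Ceapin-A7 was named after its values were seen. Genes and lists were chosen with earlier results of these data known. GC content came from a GRCm38 annotation by symbol. The columns of the authors' own comparisons were not used.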

Additional observations from a re-analysis of the deposited data

Results flagged for a closer look

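Of 40 sets of 5 libraries (10 cone genes in 4 groups), 1 held a library far from the others by Dixon's test. Pde6h was 395 FPKM in Atf6+/+ OIR replicate 4, where the other 4 libraries of the group ranged from 295 to 318 FPKM, and the gap to the nearest was 0.764 of the whole range (critical value 0.71). Chance alone marks about 1 in 20 such sets, so 1 in 40 is no more than that. Without that library, Pde6h joined Opn1mw and Gnat2 at an unadjusted p of 0.05 or less in OIR, where 3763 of 15702 genes then passed, against 2002 of 15704 with all libraries. The median deviation of the cone genes in that library was 0.11 on the log2 scale, the highest of the Atf6+/+ OIR libraries, and 9 of 10 genes lay above the mean.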

How the results depend on the processing

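The number of cone genes called at an adjusted p under 0.05 stayed at 0 in both comparisons and in the test of their difference under all alternatives run, except for array weights in OIR, which called 2 (Opn1mw and Gnat2) and 2772 genes in all. Array weights also turned Cnga3 to -0.036. Rescaling by the rod counterparts had the broadest effect, by its own construction. In OIR it left 0 cone genes at an unadjusted p of 0.05 or less, a median of -0.028, and values of -0.025 for Opn1sw, -0.0082 for Gngt2, -0.068 for Pde6c, -0.044 for Pde6h, -0.094 for Cnga3, -0.018 for Cngb3 and -0.031 for Arr3. With Ceapin-A7 it left 1 such gene, a median of 3.1e-05, and values of -0.11 for Opn1mw, -0.12 for Cnga3, -0.014 for Cngb3 and -0.044 for Arr3. Genes called in OIR numbered 9 with that rescaling, 9 without a filter and 11 in a fit of all 20 libraries, which called 1 with Ceapin-A7.

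Leaving out 1 library at a time, the OIR count of all genes called ran from 5 to 9 (9 without Atf6-/- replicate 5), and the cone genes with an unadjusted p of at most 0.05 numbered 2 to 3, while all genes at that threshold numbered 1091 (without Atf6-/- replicate 4) to 4014 (without Atf6-/- replicate 5). With Ceapin-A7 the latter ran from 3 (without saline-treated replicate 4) to 8, and was 2 without saline-treated replicates 4 and 5, while all genes numbered 953 (without saline-treated replicate 4) to 2532 (without saline-treated replicate 2), and 770 without both. Cnga3 in OIR ran from -0.058 (without Atf6-/- replicate 5) to 0.15 and was -0.025 without Atf6+/+ replicate 4. The opsin ratio difference with Ceapin-A7 ran from -0.23 to -0.10. Its permutation p passed 0.05 without saline-treated replicate 2 (-0.23) or Ceapin-A7-treated replicate 4 (-0.21), but only before adjustment over the 2 ratio tests. The cause was not tested.

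With the replicate number as a block (replicate block), 2 and 6 cone genes had an unadjusted p of 0.05 or less, as without it, also with the GC correction. Of all genes, 12.5% passed in OIR and 10.4% with Ceapin-A7 under the block. With the block and the GC correction, 8.88% and 10.8% did. Libraries with the same number shared only a number: their deviations correlated at -0.26 to 0.31. Pseudocounts of 1 and 0.01 kept every sign of the 10 genes. The 2 decimals of FPKM limit Cnga3 and Cngb3 most, the lowest of the 10.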
